A study of Mus musculus with 43 samples.

Results

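Small nucleolar RNAs (snoRNAs) and small Cajal body RNAs (scaRNAs) were described here across 4 tissues of wild-type and insulin receptor substrate 1 (Irs1) null mice. Members were the rows of the expression table that carried a gene name starting Snord, Snora or Scarna and that reached an FPKM (fragments per kilobase of transcript, scaled to the mapped fragments of the library) of at least 1 in any of the 16 group columns. By this rule 96 of 111 rows with such a name were taken, out of 42349 rows in the table, of which 20228 reached the same level. Of the 96 members, 63 rows named 1 gene each (36 Snord, 21 Snora and 6 Scarna), and the other 33 were joined rows, in which the authors' software had merged 45 small RNAs with the host gene or genes that overlap them. The 15 rows left out were listed at 0 in every group, except Scarna13, which was above 0 in 7 groups and reached 0.693. The member nearest to the threshold was Scarna3a, at 1.21 in 1 group. Members were thus chosen by the FPKM values themselves, so levels are given below as a description with no test.

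As background, box C/D snoRNAs (Snord) guide the 2'-O-methylation of ribosomal RNA and box H/ACA snoRNAs (Snora) guide the conversion of uridine to pseudouridine, while scaRNAs direct the same modifications on spliceosomal RNAs in the Cajal body. Most are cut out of the introns of host genes, many of which encode ribosomal proteins and translation factors, and only a few have promoters of their own. The mature RNAs carry no poly(A) tail, whereas the libraries here were made from poly(A)-selected RNA, so that a value in a snoRNA row may come from the mature RNA, from a precursor or from a host transcript that covers it, and these cannot be told apart in this table.

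The tissues were liver, brain, skeletal muscle and the inguinal depot of white fat (white adipose tissue, WAT), taken from female mice aged 15 months. They were Irs1+/+ (WT) or Irs1-/- (KO, the gene being lost in all tissues), and had either fed ad libitum (AL) or been under dietary restriction (DR), stepped down from 10 weeks of age to 30% below the intake of the AL mice, for 12 months. The 4 groups, WTAL, KOAL, WTDR and KODR, held 43 libraries over the 4 tissues, with 2 libraries in 5 groups (WTAL in each tissue, and WTDR in WAT) and 3 in the other 11. The table gives 1 FPKM value per group and tissue with the authors' 95% interval, and no value per library and no counts, so that the spread between mice and the depth are unknown. Every value below is the authors' group value, with their interval in parentheses where it is given.

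The table was first checked against its labels. Irs1 lay between 1.62 and 6.56 FPKM and was lower in the KO column in only 1 of 8 comparisons of KO with WT. By the Wald test used below it was called higher in KODR than in WTDR brain (log2 difference 1.35, standard error 0.40). This was 1 of 4 tests of Irs1 in KODR against WTDR, and it did not pass with the SD raised. Which part of the gene is missing in these mice is not given in the sources used here. The Irs1 row may thus not check the genotype, and KOAL and KODR are used below as labels. The 7 markers of each tissue summed highest in the tissue of that label. The liver marker sum (Alb, Apoa1, Apoa2, Ttr, Serpina1c, Fgb and Cyp3a11, none at 0) was 2413 FPKM in WTDR muscle against 19.3, 44.7 and 98.2 in WTAL, KOAL and KODR muscle. The sum of 5 red blood cell markers (Hba-a1, Hba-a2, Hbb-bs, Hbb-bt and Alas2, none at 0) was higher in KO than in WT columns of liver (13569 and 12047 against 2681 and 3469), muscle (11582 and 20283 against 950 and 1553) and brain (9907 and 3475 against 1032 and 971), and in WAT was 4297 and 21030 in KOAL and KODR against 6863 and 12269 in WTAL and WTDR. Of 20 tests of these 5 genes by the Wald test used below, 4 were called higher in KOAL than in WTAL, all in muscle. In KODR against WTDR 5 were called higher, in muscle and brain alone. None of these passed with the SD raised, as described below. Of all rows 0.681% were called in KOAL against WTAL muscle, and 2.23% and 1.16% in KODR against WTDR muscle and brain.

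The sequences of several members on which the results turn are printed from the GENCODE M21 transcripts of GRCm38, 5' to 3', so that their length and boxes can be read beside the values. Capitals mark the C box (TGATGA) where it lay in the first 20 bases and the D box (CTGA) where it lay in the last 15 bases of box C/D RNAs, and the ACA placed 3 bases from the 3' end in Snora73b. Snord49a (chr11:62603450-62603521, + strand) lies in an intron of the long RNA 2410006H16Rik, and introns also hold Snord82 (chr1:86356261-86356330, - strand) in Ncl, which encodes nucleolin, and Snord71 (chr8:109839295-109839379, + strand) in Ap1g1, which encodes an adaptor protein of vesicle transport. Snord118 (chr11:69073427-69073561, + strand), better known as the U8 snoRNA, had no host gene on its strand. Snora73b (chr4:132352322-132352526, - strand), the U17b snoRNA, is shown for the box H/ACA family, and Snord116l1 (chr7:59894620-59894713, - strand) and Snord116l2 (chr7:59876933-59877026, - strand) for the imprinted cluster that is best known from the brain.
Snord49a: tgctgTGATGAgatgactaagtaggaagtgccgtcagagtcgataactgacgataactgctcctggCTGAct
Snord82: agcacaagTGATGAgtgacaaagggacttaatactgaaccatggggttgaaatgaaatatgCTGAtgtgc
Snord71: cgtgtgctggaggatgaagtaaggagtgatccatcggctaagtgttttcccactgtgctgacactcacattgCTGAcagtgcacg
Snord118: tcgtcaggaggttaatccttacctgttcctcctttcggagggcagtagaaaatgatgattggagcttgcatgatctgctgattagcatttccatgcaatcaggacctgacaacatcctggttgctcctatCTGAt
Snora73b: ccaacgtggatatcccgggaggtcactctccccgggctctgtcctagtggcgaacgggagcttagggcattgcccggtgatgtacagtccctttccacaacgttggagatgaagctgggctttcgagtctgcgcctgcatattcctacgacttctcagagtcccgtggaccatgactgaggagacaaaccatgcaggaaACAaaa
Snord116l1: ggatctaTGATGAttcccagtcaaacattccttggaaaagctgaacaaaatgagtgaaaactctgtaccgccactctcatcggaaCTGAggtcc
Snord116l2: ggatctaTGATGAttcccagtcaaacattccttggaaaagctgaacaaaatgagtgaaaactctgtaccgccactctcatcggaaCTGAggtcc

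The marked boxes were common in the members. The rule took members by names that go with these RNA classes, so the boxes are not an independent trait. The C box letters stood in the first 20 bases of 63.9% of the 36 Snord members, against 0.246% of 1626 other annotated single-exon genes of 60 to 99 bases, and the D box letters stood in the last 15 bases of 91.7% of them, against 7.32%. In 19 of the 21 Snora members (90.5%) the ACA stood 3 bases from the end, against 1.09% of 3123 other genes from 100 to under 200 bases. The H box (ANANNA), a looser motif, was found in 95.2% of the Snora members and in 67.0% of those other genes. Of 62 other annotated Snord genes, 75.8% held the C box letters and 93.5% the D box letters in the same places. Of 20 other annotated Snora genes, 80% held the ACA there. These motifs were searched on the transcribed strand alone. In the genome, 40 of the 63 members that named 1 gene lay in an intron and 11 in an exon of a host gene with a row in the table, 4 and 1 more did so in hosts without one, 2 crossed an exon edge, and 5 members (Snord118, Snord104, Snord13, Scarna17 and Scarna2) had no host on their strand. The host was a protein-coding gene for 46 of the 63.

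The FPKM values differed with the length of the row. The box C/D members were 64 to 238 bases long (median 87), the box H/ACA members 127 to 205 (median 132) and the scaRNAs 70 to 414 (median 135.5). Among the 30 members under 100 bases the median value above 0 was 73.8 FPKM, against 9.48 for the 29 members from 100 to under 200 bases and 2.58 for Scarna2, the only member of 400 bases or more. Other single-gene rows behaved in the same order, with medians of 42.9 FPKM under 100 bases (241 rows) and 10.1 from 100 to under 200 bases (568 rows), and 4.79 at 400 bases and over (12640 rows).

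The lowest value that a row could show above 0 moved with length too. The smallest value above 0 had a median of 22.7 FPKM in members under 100 bases and 2.53 in those from 100 to under 200 bases, and of 24.1 and 4.32 in other rows of the same lengths. A row of this length was thus either listed at 0 or, as in all 30 members, at 6.90 FPKM and above, past the threshold of 1, and 13 of the 63 members were above 0 in exactly 1 group. Multiplying by the annotated length lowered the standing of the members. Snord49a reached 7793 FPKM, with 30 of 14310 rows of known length above it, but 561 after multiplication by its annotated length in kilobases, with 1233 rows above it. For Snord82 the same figures were 3090 FPKM (68 rows above) and 216 (3025 rows above), and for Snord118 they were 2212 FPKM (97 rows above) and 299 (2293 rows above). After the same multiplication the members still differed between the length classes, with a median highest value of 8.82 under 100 bases and 2.95 from 100 to under 200 bases, and a median smallest value of 1.83 and 0.34. In other rows the median smallest values were 1.94 and 0.53, with 0.12 from 200 to under 400 bases and 3.13 at 400 bases and over. The products are therefore not levels free of length, and the ranks by them are a description only. In members under 100 bases, 65.6% of all group values were listed at 0, against 84.5% in other rows of that length and 5.77% in rows of 400 bases and over.

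**Figure D1:**
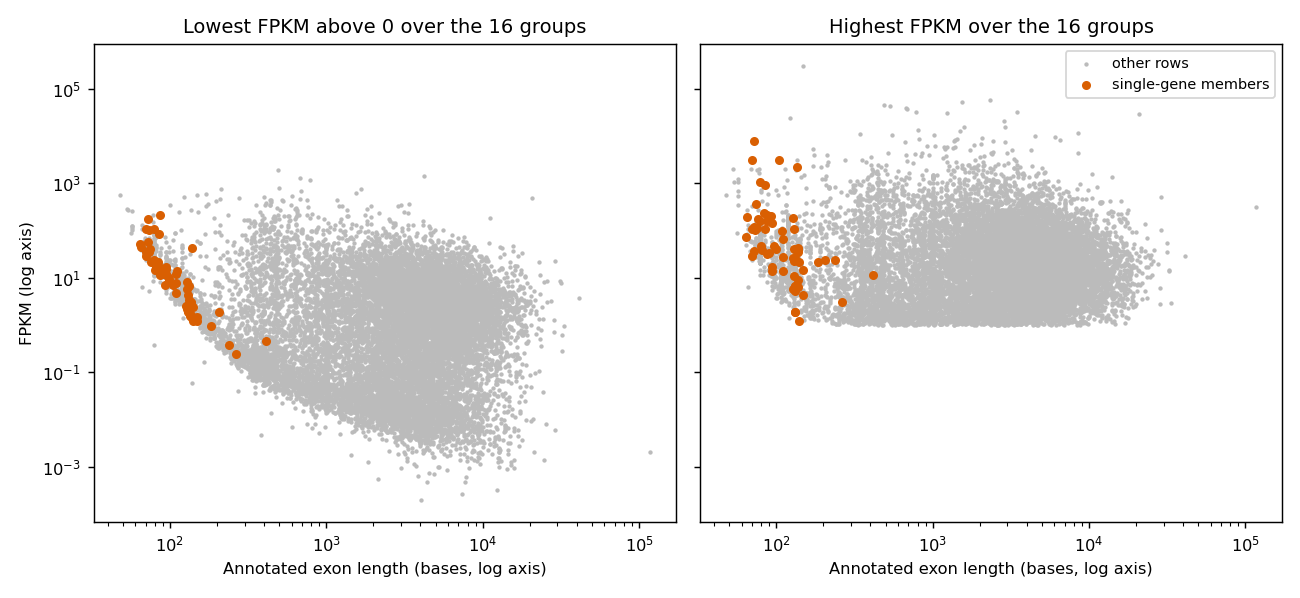
Lowest value above 0 and highest value (FPKM, log axis) of each single-gene row against its annotated exon length (bases, log axis), with members in orange and other rows in grey. Members under 100 bases have a median smallest value of 22.7 FPKM and those from 100 to under 200 bases 2.53, against 24.1 and 4.32 in other rows of these lengths.

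The authors' intervals were of different kinds for neighbouring values of a member. Expressed as a standard deviation (SD, the distance from the value to the upper bound divided by 2) in percent of the FPKM, the 393 values above 0 of single-gene members ran from 2.26% to 3116%, with 99 under 20% and 146 over 100%. Snord49a was given as 172 (157 to 186) in WTAL brain and as 7793 (0 to 17338) in KODR muscle, and Snord82 as 1312 (1172 to 1453) in KOAL liver and as 3090 (0 to 16198) in KODR muscle. Thus 8 of the 50 members that were above 0 in at least 2 groups had both kinds of interval. The median SD of all rows of a group lay between 39.8% and 77.6%, so that an SD under 20% for a transcript of 70 bases was narrower than for the usual gene of the same group. For this reason each test below was repeated with every SD raised to at least the median of its group. With 1 value per group no exact test could be made, and the Wald test used here takes a normal reference for groups of 2 or 3 libraries, so its calls are given with the size of the difference and its standard error (SE) and without p-values.

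**Figure D2:**
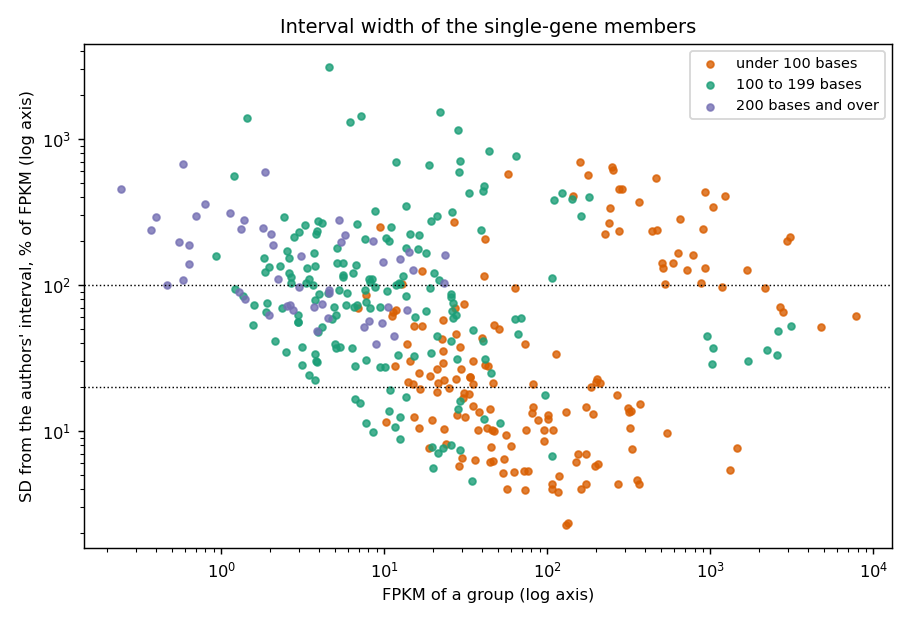
SD taken from the authors' interval (percent of the FPKM, log axis) against FPKM (log axis) for the values above 0 of single-gene members, by length class, with dotted lines at 20% and 100%. Of 393 values, 99 lie under 20% and 146 over 100%.

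Only 6 of the 63 single-gene members were above 0 in all 16 groups: the box C/D RNAs Snord82, Snord49a and Snord71, the box H/ACA RNAs Snora28 and Snora73b, and Scarna2. Another 12 were above 0 in 9 to 15 groups, 16 in 5 to 8, 16 in 2 to 4 and 13 in 1. The number above 0 was 14, 38, 34 and 23 of 63 in WTAL, KOAL, WTDR and KODR liver, 21, 27, 21 and 26 in muscle, 14, 23, 30 and 14 in brain, with 23, 28, 22 and 35 in WAT. Of 809 other single-gene rows under 200 bases that reached 1 FPKM, 17.8%, 36.3%, 32.3% and 31.5% were above 0 in these liver groups. The shares were 19.8%, 30.8%, 25.1% and 26.9% in muscle and 15.1%, 32.6%, 34.0% and 19.3% in brain. In WAT they were 24.0%, 27.8%, 19.2% and 28.2%. Groups of 2 libraries held 14 to 23 members (median 21) and groups of 3 held 14 to 38 (median 27). The median was higher where 3 libraries were pooled, although the ranges overlapped, and the part of the number of libraries in the differences between WTAL and the other groups was not tested. The joined rows, which carry the mRNA or long RNA of the host, were above 0 in all groups in 33 of 33 cases.

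**Figure D3:**
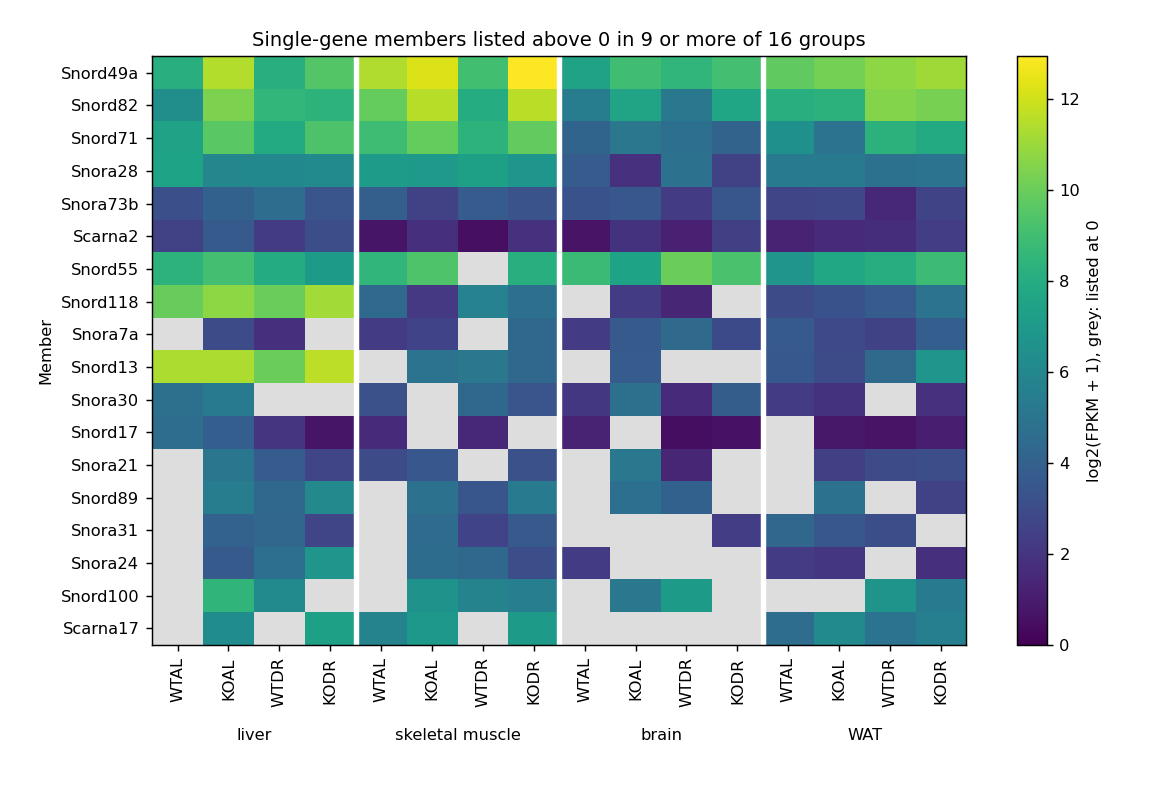
Level, as log2(FPKM + 1), of the 18 single-gene members above 0 in at least 9 groups (rows) in the 16 groups (columns); grey marks a value listed at 0. Snord49a, Snord82 and Snord71 are filled in every group, and Snord118 and Snord13 stand out in the 4 liver columns.

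Snord49a, which guides methylation of 28S ribosomal RNA, was the member with the highest values. In liver it stood at 273 (249 to 296), 2791 (0 to 6458), 274 (0 to 1561) and 716 (0 to 2514) FPKM in WTAL, KOAL, WTDR and KODR. In muscle it stood at 2657, 4799, 515 and 7793 FPKM, every interval reaching 0. The brain values were 172 (157 to 186), 506 (0 to 1926), 365 (333 to 397) and 530 (0 to 1610), and the WAT values 880, 1182, 1673 and 2162. In each tissue the KO value exceeded the WT value of the same diet, and the KO intervals all reached 0 in liver, muscle, brain and WAT.

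Snord82 shared this order in part. It was given as 81.4 (47.1 to 116), 1312 (1172 to 1453), 372 (258 to 486) and 327 (238 to 417) FPKM in WTAL, KOAL, WTDR and KODR liver, and as 41.6 (18 to 65.3), 186 (112 to 260), 35.1 (24.6 to 45.5) and 190 (141 to 239) in brain. The muscle values, 931, 2954, 254 and 3090 FPKM, had intervals that reached 0. In WAT it was 274 (0 to 2773), 315 (230 to 401), 1467 (1242 to 1692) and 1229 (0 to 11266), where DR rather than the genotype label separated the higher from the lower values.

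Snord71, a guide for 5.8S ribosomal RNA, was low in brain, at 17.1, 33.4, 25.0 and 16.4 FPKM, below its lowest liver value of 173 (123 to 224) and its lowest muscle value of 323 (256 to 391). In WAT it ran from 29.0 (7.18 to 50.7) in KOAL to 311 (221 to 400) in WTDR. Snord55, a box C/D RNA, behaved otherwise: its highest value was 1042 FPKM in WTDR brain, and it was listed at 0 in WTDR muscle while the other muscle groups had 365, 651 and 287 FPKM.

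Snord118 and Snord13 were members with all 4 liver values above all 12 others, a pattern that 10.7% of the 20228 rows showed for liver. Snord118, required for the processing of 28S and 5.8S ribosomal RNA, was at 955 (106 to 1805), 1703 (683 to 2723), 1020 (430 to 1610) and 2212 (618 to 3806) FPKM in WTAL, KOAL, WTDR and KODR liver. Outside the liver it was at 3.45 to 51.6 in muscle, 6.63 to 29.3 in WAT and 0 to 3.76 in brain. Snord13, which acts on 18S ribosomal RNA, was at 2591 (103 to 5079), 2562 (864 to 4261), 1035 (275 to 1796) and 3140 (0 to 6417) FPKM in liver and at 106 or less elsewhere, with 3 of 4 brain values listed at 0. Both have genes of their own outside any host, and 3 joined rows shared the liver pattern, those of Rabggtb with Snord45c, Rcc1 with Snhg3 and Snora73a, and Rpl10 with Snora70. In bulk tissue, fewer cells of a type and less RNA per cell cannot be told apart for any of these differences.

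**Figure D4:**
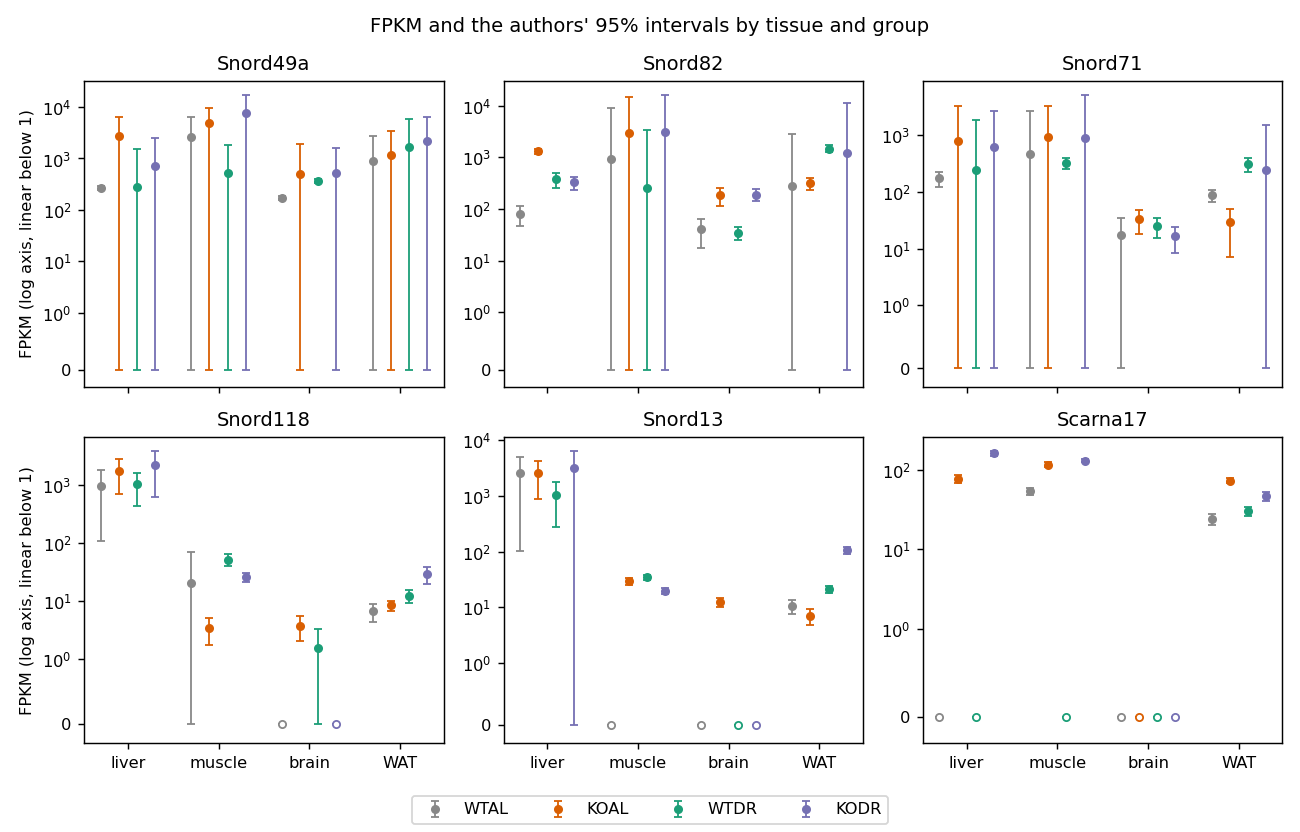
FPKM (symmetric log axis) of Snord49a, Snord82, Snord71, Snord118, Snord13 and Scarna17 in the 16 groups; points are the authors' group values, bars their 95% intervals, and open points values listed at 0. Snord118 runs from 955 to 2212 FPKM in liver and stays at or below 51.6 elsewhere, and Snord49a has bars that reach 0 in all KO groups.

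Among the box H/ACA members, Snora28, which the annotation places on an exon of the translation factor gene Eif5, was at 180, 63.3, 63.9 and 69.4 FPKM in liver, 142, 124, 161 and 110 in muscle, 12.5, 2.53, 28.6 and 4.90 in brain, with 40.3, 41.1, 28.3 and 29.3 in WAT. All of its intervals reached 0. Snora73b, which takes part in the cleavage of the ribosomal RNA precursor, ran from 1.85 to 23.3 FPKM with a median of 8.73. Snora34 had all 4 muscle values (5.92, 15.4, 26.0 and 39.1 FPKM) above its values in other tissues, which were 2.97 or less, as 7.72% of all rows did for muscle.

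The scaRNAs fell into a low and an intermittent kind. Scarna2, a guide for the U2 spliceosomal RNA, was at 4.58, 11.5, 3.90 and 7.55 FPKM in WTAL, KOAL, WTDR and KODR liver, 0.638, 2.52, 0.462 and 2.63 in muscle, 0.586, 2.78, 1.28 and 4.55 in brain, with 1.40, 1.97, 2.22 and 4.13 in WAT, so that the KO value was above the WT value of the same diet in all 4 tissues, though none of these differences passed the test. Scarna17 was listed at 0 in WTAL and WTDR liver and at 76.5 and 161 FPKM in KOAL and KODR liver; in muscle it was at 53.2, 116, 0 and 129, in WAT at 24.0, 72.8, 29.8 and 46.3, and in brain at 0 throughout. Scarna9 appeared only in KODR WAT, at 108 FPKM (98.3 to 117), Scarna8 only in KOAL brain at 1.87 and Scarna3a only in WTDR brain at 1.21, and Scarna6 reached 3.07. Scarna9, of 70 bases, thus stood at 0 in 15 groups and above 100 FPKM in the remaining group, with nothing between.

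The 2 members of the imprinted Snord116 cluster, which neurons make from the paternal chromosome, were above 0 in brain and at 0 in the other tissues. Snord116l1 was listed at 11.6 FPKM (5.17 to 18.1) in WTAL brain and 13.97 (7.97 to 20.0) in KOAL brain, and Snord116l2 at 16.5 (12.99 to 19.9) in WTDR brain, with every other group at 0. The sequences of the pair are identical at 94 of 94 positions, so a read of either cannot be assigned, and the change of name between groups cannot be read as a difference of expression. The joined row of Snrpn, Snurf, D7Ertd715e and Snord107 stood at 688, 662, 519 and 901 FPKM in brain against 2.74 to 16.4 in liver, 46.5 to 171 in muscle and 34.5 to 55.8 in WAT. It was with the Matr3 row (Matr3, Snhg4, Gm28285 and Snora74a, 83.3 to 102 FPKM in brain and 18.9 to 48.0 elsewhere) 1 of only 2 members with all brain values above all others, a pattern of 20.9% of all rows. No member showed it for WAT (6.88% of all rows).

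Genotype was compared first in AL mice, KOAL against WTAL. In liver, 6 of 46 members tested were called by a Wald test at a false discovery rate (FDR) of 10%, all of them higher in KOAL, where 0.316% of all rows and 12.9% of other single-gene rows under 200 bases were called. Snord82 was higher by 4.01 log2 units (SE 0.31), the Snhg12 row by 2.21 (SE 0.24), the Ckap5 row by 4.16 (SE 1.04), Snord35a by 2.52 (SE 0.54, from 34.91 to 201 FPKM), the Snhg1 row by 0.97 (SE 0.15) and Snord55 by 0.72 (SE 0.18). A joined row is called here by its host: the Snhg12 row holds Snora44, Snora61 and Snord99, the Snhg1 row Snord22 and 7 genes with Gm names, and the Ckap5 row Snord67, and Snhg1 and Snhg12 are long RNAs known mainly as hosts of snoRNAs. Snord35a lies in an intron of Rpl13a. Of the 6, 3 were among the 13 single-gene members tested and 3 among the 33 joined rows. With the SD raised none of the 6 passed. The median difference over the 46 members was 0.75, against 0.16 over all tested rows. It was 0.83 over the 13 single-gene members and 0.70 over the 33 joined rows, against 0.63 over other single-gene rows under 200 bases. In every tissue and comparison below, 33 of the members tested were joined rows, which carry host RNAs. The shares of other short rows are thus to be set beside single-gene members alone, whose counts are given separately.

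In muscle 4 of 49 were called in the same comparison (background 0.681%, other short rows 5.65%), all higher: the row of 1810032O08Rik with Snord1a, Snord1b and Snord1c (log2 difference 5.02, SE 1.07, from 6.47 to 209 FPKM), the Rpl23a row (2.61, SE 0.49), the Snhg1 row (1.54, SE 0.33) and Scarna17 (1.12, SE 0.09). In brain 2 of 42 were called (0.203%, other short rows 18.8%), Snord82 (2.16, SE 0.50) and the Snhg12 row (1.44, SE 0.22), and in WAT 1 of 51 (1.29%, other short rows 2.27%), Scarna17 (1.60, SE 0.13). All 3 were higher in KOAL. Thus the 13 calls of the comparison pointed one way. With the narrow intervals widened none stood, but the lowest SE was then 1.01, at which the smaller differences could not pass. The red blood cell marker sum was also higher in KOAL than in WTAL in liver, muscle and brain, though its genes were called in muscle alone. The part of this sum in the 13 calls was not tested. In WAT 6 of 7 skeletal muscle markers were called higher in KOAL (median log2 difference 4.93), 6 tests of these markers over the 4 tissues passed with the SD raised, and the summed level of the 7 was 525 FPKM in WTAL and 1008 in KOAL, none being at 0. Their part in the Scarna17 call was not tested. Among single-gene members alone, 1 of 16, 1 of 9 and 1 of 18 were called in muscle, brain and WAT. The median differences over these members were 0.72, 1.56 and -0.07. Over joined rows the medians were 0.32, 0.42 and 0.21, and over other short rows 0.18, 0.26 and -0.30.

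Rows listed at 0 could not enter the test, and these too were unevenly spread, in members and in other short rows. In WTAL liver 22.2% of single-gene members and 17.8% of 809 other rows under 200 bases were above 0, and in KOAL liver 60.3% and 36.3%. In brain the shares were 22.2% and 15.1% in WTAL, and 36.5% and 32.6% in KOAL. In liver 25 single-gene members were at 0 in WTAL and above 0 in KOAL, 1 the reverse and 24 at 0 in both; the numbers were 11, 5 and 31 for muscle, 13, 4 and 36 for brain, and 10, 5 and 30 for WAT. An example is Snord100, a box C/D RNA of the ribosomal protein gene Rps12, which was listed at 0 in WTAL in all 4 tissues and reached 357 FPKM in KOAL liver. WTAL had 2 libraries and KOAL 3 in each tissue, so for these rows the genotype label and the number of libraries cannot be told apart. Under DR the balance differed between tissues: 3 single-gene members were at 0 in WTDR alone and 14 in KODR alone in liver, with 10 and 5 for muscle, 3 and 19 for brain, 17 and 4 for WAT. Between the WT groups 22 were at 0 in WTAL alone and 2 in WTDR alone in liver, with 10 and 10 for muscle, 20 and 4 for brain, 9 and 10 for WAT. Between the KO groups 3 were at 0 in KOAL alone and 18 in KODR alone in liver, with 8 and 9 for muscle, 5 and 14 for brain, 14 and 7 for WAT.

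Under DR the genotype comparison, KODR against WTDR, has 3 libraries on both sides except in WAT. In liver 0 of 53 members were called by the Wald test (all rows 0.288%, other short rows 12.7%). By the same test 3 had an unadjusted p under 0.05, and 3 had intervals that did not overlap. The shares of all rows by these measures are not given here, so the counts are not read as differences. In muscle 8 of 49 were called (2.23%, other short rows 18.8%). The Snhg1 row was higher by 4.72 (SE 0.78), at 8.85 FPKM (0 to 18.4) in WTDR and 234 (222 to 246) in KODR, and was still called with the SD raised (SE 1.047). Snord89 (2.01, SE 0.43), the Snhg12 row (1.76, SE 0.08) and the Rpl13a row (1.38, SE 0.36) were also higher. Snord118 (-1.002, SE 0.20), Snord13 (-0.80, SE 0.10), Snora24 (-1.35, SE 0.20) and the Ckap5 row (-2.15, SE 0.69) were lower. WTDR muscle is the group with the raised liver marker sum (2413 FPKM), and Snord118 and Snord13 had their highest values in liver. The WAT markers Adipoq (2.37) and Plin1 (2.98) and the brain marker Mbp (3.53) were called higher in KODR muscle. So were Hba-a1 (4.36) and Hbb-bt (2.70), and the other WAT, brain and red blood cell markers were not called. The part of these signals in the differences of the members was not tested.

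In brain 2 of 43 members were called under DR (1.16%, other short rows 9.8%): Snord82 was higher in KODR by 2.44 (SE 0.29) and the Gas5 row, a long RNA that carries snoRNAs in its introns, was lower (-1.18, SE 0.14). In WAT 5 of 51 were called (0.283%, other short rows 1.61%), with Snord13 (2.31, SE 0.14), Snord118 (1.24, SE 0.29) and Scarna17 (0.63, SE 0.13) higher and Snord100 (-1.42, SE 0.23) and Snord7 (-1.03, SE 0.21) lower. None of these 7 passed with the SD raised. The median differences over the tested members were 0.21, 0.37, 0.11 and 0.39 in liver, muscle, brain and WAT, against 0.09, 0.04, 0.23 and 0.09 over all rows. Over other short rows they were 0.28, 0.22, -0.03 and 0.31. Over single-gene members alone they were 0.82, 0.49, 0.71 and 0.57, and over joined rows 0.17, 0.33, 0.06 and 0.34. Of single-gene members 0 of 20 were called in liver, and 1 of 16 was called higher and 3 lower in muscle. In brain 1 of 10 was called higher, and in WAT 3 of 18 were called higher and 2 lower.

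Diet was compared in WT mice, WTDR against WTAL. In liver 2 of 45 members were called (0.236% of all rows, 13.8% of other short rows), Snord82 being higher by 2.19 (SE 0.38) and Snord91a lower (-4.16, SE 0.93, from 199.3 to 11.2 FPKM). In muscle 1 of 43 was called (1.4%, other short rows 5.5%), the Snhg1 row, which was lower (-2.88, SE 0.84) in the muscle group with the raised liver marker sum. In brain 3 of 43 were called (0.224%, other short rows 11.5%), with the Gas5 row (4.97, SE 1.23, from 8.11 to 254 FPKM) and Snord49a (1.09, SE 0.09) higher and the Snhg12 row lower (-1.71, SE 0.41). In WAT 4 of 46 were called (0.57%, other short rows 3.64%), all higher: the Snhg12 row (3.22, SE 0.54), Snord71 (1.83, SE 0.27), Snord55 (1.32, SE 0.29) and Snord13 (1.01, SE 0.22). In the same WAT comparison 4 of 7 skeletal muscle markers were called higher in WTDR (median log2 difference 4.27), while their summed level was 525 FPKM in WTAL and 369 in WTDR, and their part in the 4 calls was not tested. Snord91a lies in an intron of Tsr1, which encodes a ribosome assembly factor. None of the 10 passed with the SD raised. The median differences over the tested members were 0.48, 0.04, 0.21 and 0.12 in liver, muscle, brain and WAT, against 0.03, -0.06, -0.08 and -0.17 over all rows. Over other short rows they were 0.50, 0.45, 0.31 and 0.002. Over single-gene members alone they were -0.11, 0.009, 0.82 and 0.91, and over joined rows 0.58, 0.04, 0.17 and 0.03. Of single-gene members 1 of 12 was called higher and 1 lower in liver, and 0 of 10 were called in muscle. In brain 1 of 10 was called higher, and in WAT 3 of 13 were.

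In KO mice, KODR against KOAL, the liver calls went mainly down. There 7 of 53 members were called (0.611%, other short rows 13%): Snord82 (-2.003, SE 0.21), Snord55 (-2.05, SE 0.24), Snord35a (-3.13, SE 0.53), the Snhg1 row (-2.34, SE 0.30), the Snhg12 row (-3.67, SE 0.57) and the Ckap5 row (-6.16, SE 1.57) were lower in KODR, and Scarna17 was higher (1.07, SE 0.10). The KOAL liver column enters both this comparison and that of KOAL with WTAL. In muscle 6 of 51 were called (0.5%, other short rows 11.3%): Snord118 (2.90, SE 0.37) and the Snhg1 row (0.30, SE 0.09) were higher, and the 1810032O08Rik row (-5.87, SE 1.19), Snora24 (-1.56, SE 0.20), Snord100 (-1.10, SE 0.15) and Snord13 (-0.55, SE 0.13) lower. The 1810032O08Rik row, at 209 FPKM (195 to 224) in KOAL and 2.37 to 6.47 in the other muscle groups, was still called with the SD raised (SE 1.43).

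Brain had 1 call of 42 in that comparison (0.365%, other short rows 18.3%), the Rpl10 row, which was lower (-2.44, SE 0.55). WAT had 5 of 54 (0.707%, other short rows 7.91%), with Snord13 (3.91, SE 0.25), Snord118 (1.78, SE 0.27), the Rpl13a row (1.60, SE 0.39) and Snord87 (1.57, SE 0.21) higher in KODR and Scarna17 (-0.65, SE 0.11) lower. Among single-gene members alone, 1 of 20 was called higher and 3 lower in liver, and 1 of 18 higher and 3 lower in muscle. In brain 0 of 9 were called, and in WAT 3 of 21 were called higher and 1 lower. Over the 4 comparisons 57 calls were made on 22 members. Of these calls 34 were on 14 single-gene members and 23 on 8 joined rows, and 2 of the 57 stood with the SD raised. The share called differed with length in other rows as well: in KOAL against WTAL, summed over tissues, 27.3% of 22 member tests under 100 bases were called, and 27.0% of 63 tests of other rows of that length, 5.91% of 389 from 100 to under 200 bases and 0.401% of 38166 at 400 bases and over. Among members the order was not the same throughout: in KODR against WTDR 4 of 25 tests under 100 bases and 6 of 28 (21.4%) from 100 to under 200 bases were called. With the SD raised, no test of a single-gene member was called at any length in the 4 comparisons by the Wald test. Of other rows from 100 to under 200 bases, 0 of 389 (KOAL against WTAL), 3 of 361 (WTDR against WTAL), 7 of 460 (KODR against WTDR) and 2 of 507 (KODR against KOAL) were, and 0 under 100 bases, against 40, 34, 50 and 8 at 400 bases and over.

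The test of whether the genotype difference depended on diet called 6 members in all. In liver it was Snord82 (1 of 44, background 0.086%), whose difference between KO and WT was -0.18 under DR and 4.01 under AL. In muscle it was the Snhg1 row (1 of 41, 0.371%), with 4.72 under DR and 1.54 under AL. In brain they were the Gas5 and Rpl10 rows (2 of 42, 0.396%), and in WAT Scarna17 and Snord13 (2 of 44, 0.121%). None of the 6 passed with the SD raised.

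The measured differences between groups were smaller in host rows than in the RNAs they carry, but the SEs of members were often large. Snora7a differed by -1.36 (SE 46.1) in WTDR against WTAL WAT, and its host Rpl32 by 0.58 (SE 0.84). Other member SEs were small, as for Snord82 in KODR against WTDR brain (2.44, SE 0.29). Where a single-gene member and its host row were both above 0, the sign of the difference was the same in 97 of 183 pairs (53.0%), and the median size of the difference was 1.00 log2 units for the member and 0.30 for the host. Rows unrelated to these RNAs differed with length too: the median size was 0.83, 0.74, 0.58 and 0.86 in other rows under 100 bases in KOAL against WTAL, WTDR against WTAL, KODR against WTDR and KODR against KOAL, and 0.39, 0.44, 0.37 and 0.34 in rows of 400 bases and over. The parts of length and of the large member SEs in the contrast between members and hosts were not tested. The Ncl row lay between 24.0 and 77.8 FPKM over the 16 groups while Snord82 ran from 35.1 to 3090. The long RNA 2410006H16Rik lay between 3.36 and 17.0 FPKM, and of the 3 members it hosts Snord49a was above 0 in all groups, Snord49b in 3 and Snord65 in 1. Eif5, host of Snora28, lay between 22.5 and 65.7 FPKM and Rps12, host of Snord100, between 6.24 and 50.0. The highest host value was above the highest member value in 31 of 53 pairs of a member and its host, and the pairs of 1 host and the comparisons with a shared group are not independent.

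**Figure D5:**
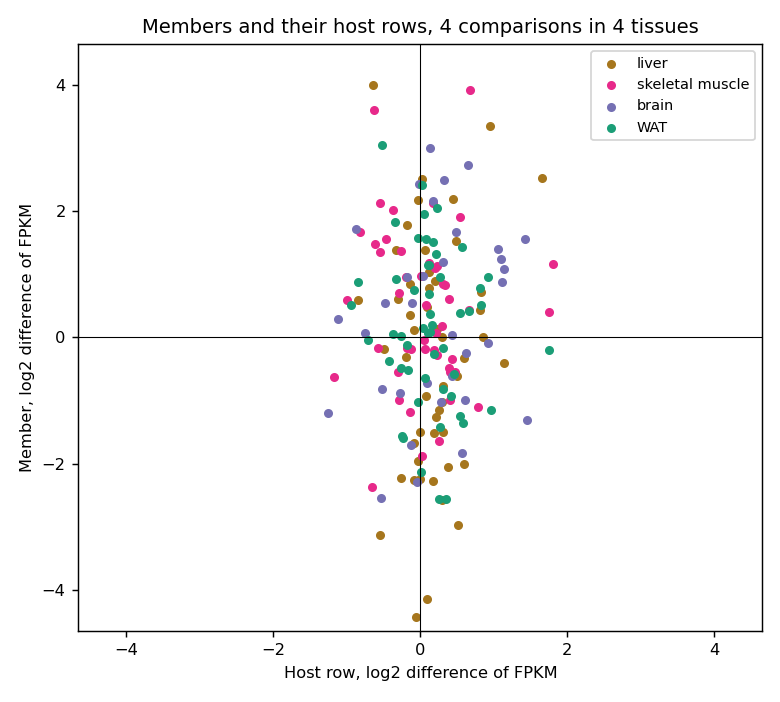
Log2 difference of each single-gene member (vertical axis) against that of its host row (horizontal axis) in the 4 comparisons and 4 tissues, 1 point per pair. The 183 pairs spread further along the member axis (median size 1.00) than along the host axis (0.30), with 97 of the same sign.

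Several joined rows ranged as widely as the short RNAs. The Nop56 row (Nop56, a core protein of box C/D particles, with Snord57 and 3 genes with Gm names) stood at 13.1, 1149, 78.1 and 240 FPKM in liver, 508, 2092, 107 and 2410 in muscle, 44.1, 128, 49.5 and 27.6 in brain, with 125, 131, 739.0 and 739.5 in WAT, and the interval of the KOAL liver value was 0 to 11163. In muscle its order (KODR, KOAL, WTAL, WTDR from the highest) was that of Snord49a and Snord82. The Gas5 row stood at 767, 747, 110 and 211 FPKM in liver, 150, 493, 211 and 867 in muscle, 8.11, 442, 254 and 112 in brain, with 75.8, 284, 309 and 279 in WAT. Since a joined row is the sum over its genes, it cannot be told which of them the difference belongs to.

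The protein genes of the pathway gave no calls. Of the box C/D proteins (Fbl, Snu13, Nop58 and Nop56, whose row is the joined row), 0 of 16 tests passed in each comparison, with 0, 0, 1 and 1 at an unadjusted p under 0.05 in KOAL against WTAL, WTDR against WTAL, KODR against WTDR and KODR against KOAL by the Wald test. Of the box H/ACA proteins (Dkc1, Gar1, Nhp2 and Nop10) 0 of 16 passed and 0 had an unadjusted p under 0.05, and the same held for the 4 Cajal body genes (Coil, Smn1, Wrap53 and Gemin2) and for the 11 assembly factors, of which 42 to 44 tests were made. Over all rows 0.203% to 2.23% of tests were called in a tissue, so 0 of 16 was near the background. The sum of the box H/ACA proteins lay between 71.5 and 131 FPKM in all 16 groups. That of the box C/D proteins ran from 60.3 FPKM in WTAL liver to 2469 in KODR muscle, where the joined Nop56 row alone had 2410. For 9 other RNAs without a poly(A) tail, histones apart, calls went in both directions. In KOAL against WTAL 3 of 19 tests were higher, and in WTDR against WTAL 2 of 18 were higher and 2 lower. In KODR against WTDR 3 of 24 were higher, and in KODR against KOAL 3 of 22 were lower. Of all rows 0.203% to 2.23%, and of other single-gene rows under 200 bases 1.61% to 18.8%, were called in a tissue. Replication histone genes were called in 2 of 183, 3 of 169, 4 of 171 and 5 of 180 tests, in the same order. Outside the histones the calls were on Rnu12, Vaultrc5, Rny3 and Rny1. Rn7sk, another of the 9, which holds back transcription elongation, was called in no comparison. It was at 37.8, 161, 18.6 and 79.9 FPKM in WTAL, KOAL, WTDR and KODR liver and at 51.2, 166, 30.7 and 149 in muscle. Both KO values were above both WT values in each of these tissues, and the brain and WAT values of Rn7sk are not given here. The sum of the 9 RNAs, some listed at 0, had this order in 2 tissues. They were muscle (KOAL 859 and KODR 863 against WTAL 186 and WTDR 146 FPKM) and brain (1543 and 640 against 113 and 395). It did not in liver (461 and 205 against 410 and 59.8) or WAT (62.0 and 162 against 46.1 and 161). In liver and muscle the sum of the red blood cell markers was arranged in the same way as Rn7sk. The part of these markers in the differences of the small RNAs was not tested.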

How the data were processed

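RNA was poly(A)-selected, made into libraries with the Ion Total RNA-Seq Kit v2 and sequenced on an Ion Proton. Per the labels and the study's methods, the authors trimmed reads with cutadapt 1.5 and sickle, aligned them to GRCm38 with BBmap and used Cuffdiff 2.2.1 with multi-read correction to give the deposited FPKM, pooled per group, each with a 95% interval. They also dropped reads below a set length and aligned unmapped reads again as stretches cut from them. The part of these steps in the values of the shortest rows was not tested. Cuffdiff merges overlapping genes into 1 row, divides by transcript length and can share reads between copies. The annotation version is not given in the sources used here, and depth is unknown.

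Members and gene lists were chosen with earlier results of these data known. For each tissue and comparison, all rows with status OK, FPKM above 0 in both groups and at least 1 in either were tested by a two-sided Wald test of the log2 ratio (the deposited upper bound less the FPKM, divided by 2, as SD, with the delta method), with Benjamini-Hochberg adjustment and FDR 10%. A member's p was used only where the member reached an FPKM of 1 in another tissue. The interaction was tested alike. As the libraries are not separate, p-values rest on the authors' intervals alone. The procedure was tested on simulated data. In addition, each SD was raised to at least the median SD (relative to FPKM) of its group, an alternative chosen after the data were seen. Other alternatives were the interval overlap, FDR 5%, SD divided by the square root of the libraries, pseudocounts of 0.1 and 1, filters on FPKM, centring and leaving out joined rows. Members were named where called, among the 10 highest by median, in the imprinted, independently transcribed or scaRNA lists, or among the 3 largest differences per direction. Length, hosts and sequences came from GENCODE M21 (63 of 63 single-gene members matched). The sequences of some members are not reported here. Python 3.11.15, numpy 2.4.6, pandas 2.3.3, scipy 1.17.1 and matplotlib 3.10.9 were used.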

Additional observations from a re-analysis of the deposited data

Results flagged for a closer look

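For 6 members the difference between KO and WT under DR differed from that under AL in the interaction test by the Wald statistic at FDR 10%, in a background of 0.086% of rows in liver, 0.371% in muscle, 0.396% in brain and 0.121% in WAT. Snord82 in liver differed by -4.19 log2 units (SE 0.43), being 81.4 and 1312 FPKM in WTAL and KOAL and 372 and 327 in WTDR and KODR. The Snhg1 row in muscle differed by 3.18 (SE 0.84), from 65.1 and 190 FPKM under AL to 8.85 and 234 under DR. The low value in this row is that of WTDR muscle, the group whose liver marker sum was 2413 FPKM, and the part of that signal was not tested.

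In brain the Gas5 row differed by -6.95 (SE 1.89), at 8.11 (0 to 21.9) and 442 (0 to 1322) FPKM under AL and 254 (227 to 281) and 112 (93.8 to 131) under DR, and the Rpl10 row by -3.12 (SE 0.87), at 19.2 and 110 FPKM under AL and 30.8 and 20.3 under DR. In WAT Scarna17 differed by -0.97 (SE 0.18) and Snord13 by 2.89 (SE 0.33); Snord13 stood at 10.6 and 7.09 FPKM under AL and 21.4 and 106 under DR. The Snord82, Scarna17 and Snord13 differences had SDs well below the median of their groups, and none of the 6 passed with the SD raised.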

How the results depend on the processing

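The table holds no library values, so leaving out a library was not possible. No paired analysis was possible because the columns hold group values that carry no replicate numbers. Members called, summed over tissues, were 13 for KOAL against WTAL, 10 for WTDR against WTAL, 15 for KODR against WTDR, 19 for KODR against KOAL and 6 for the interaction. In that order, the counts were 0, 0, 1, 1 and 0 with every SD raised to the median of its group (wider SDs by construction), and 26, 17, 35, 34 and 15 with the SD divided by the square root of the number of libraries (narrower SDs by construction). Leaving out joined rows (fewer members by construction) left 6, 6, 12 and 3 for KOAL against WTAL, WTDR against WTAL, KODR against KOAL and the interaction. Intervals that did not overlap were found for 16 members in WTDR against WTAL, a count without the share of all rows beside it. The interaction gave 3 calls at FDR 5%. Members highest in brain numbered 10, not 2, when the brain median was set above the other medians. The remaining 55 values, among them those with pseudocounts, filters on FPKM and centring, stayed within 1.5 times or within the stated spread. Depth is unknown, so a value listed at 0 in a short row gives no upper limit.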
